A study of Mus musculus with 8 samples.

Results

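The genes described here are 10 genes of iron storage and transport, Fth1, Ftl1, Ncoa4, Ireb2, Slc40a1, Trf, Tfrc, Steap3, Slc11a2 and Slc39a14. They were taken by gene name from a table of RNA-seq read counts that lists 54532 genes, and all 10 were found there. The table compares enamel organs, the epithelial tissue that forms tooth enamel, at 2 ages of wild type C57BL/6 mouse pups: P5, the secretory stage in which the enamel matrix is laid down, and P12, the maturation stage in which it mineralizes. The pups were genotype wt and received no treatment, and no allele was altered at either age. Each library was made from the first molars of several pups, pooled after the pulp tissue was taken out, and 4 such pools were sequenced at each age (P5 replicates 1, 3, 4 and 5, P12 replicates 1, 2, 3 and 4). Since the pools are of different pups, the spread between libraries is a spread between pools, not between single animals.

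Iron is needed for respiration and for enzymes that use haem, but free ferrous iron generates damaging radicals, so that cells keep it in ferritin. Iron enters cells mainly as transferrin bound to the transferrin receptor, is released and reduced in endosomes, passes into the cytosol through divalent metal transporters, and leaves the cell through ferroportin. When iron is scarce, iron regulatory proteins bind a hairpin, the iron-responsive element, which blocks translation where it lies in the 5′ UTR of a transcript and slows decay where it lies in the 3′ UTR. In rodents the maturation ameloblast is well known for ferritin, and in incisors its iron ends up as the pigment of the enamel surface.

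The hairpin is shown first because it is what ties the storage, export and uptake genes together in sequence. The GENCODE M21 transcripts (GRCm38) were searched on the transcribed strand for C, 5 bases, CAGTGN and 5 bases able to pair with the 5 bases before the loop, with G-T pairs allowed. This form was found in 4 of the 10 genes, and in 294 of all 21866 protein-coding genes (1.34%). In the sequences below, 29 bases are written 5′ to 3′ on the strand of the gene, with the 6 bases of the loop in capitals.

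Fth1, 5′ UTR, plus strand, element at chr19:9982738-9982754: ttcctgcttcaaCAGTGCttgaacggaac
Ftl1, 5′ UTR, minus strand, element at chr7:45459785-45459801: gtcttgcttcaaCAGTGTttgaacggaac
Slc40a1, 5′ UTR, minus strand, element at chr1:45925471-45925487: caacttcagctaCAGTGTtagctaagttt
Tfrc, 3′ UTR, plus strand, element at chr16:32631225-32631241: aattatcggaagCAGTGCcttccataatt
Tfrc, 3′ UTR, plus strand, element at chr16:32631604-32631620: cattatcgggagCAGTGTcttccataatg
Tfrc, 3′ UTR, plus strand, element at chr16:32631669-32631685: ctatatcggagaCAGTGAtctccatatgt
Tfrc, 3′ UTR, plus strand, element at chr16:32631716-32631732: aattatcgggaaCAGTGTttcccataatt

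The elements of Fth1 and Ftl1 share the stem bases TTCAA before the loop, whereas that of Slc40a1 has another stem, and Tfrc has 4 matches to this form. In the other 6 genes these letters were not found, which says nothing of looser forms of the hairpin. Read counts measure the amount of transcript, and translation was not measured.

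The P5 libraries held 16574548 to 20262601 reads on genes and the P12 libraries 17588152 to 22013456. Values below are normalized counts, that is, reads scaled by TMM factors (edgeR) to a common library of 19006280 reads. The ages were compared with the quasi-likelihood test of edgeR, fitted on all 16440 genes with enough reads, and a gene was called at a Benjamini-Hochberg adjusted p under 0.05. Tissue labels were checked against marker genes. The secretory ameloblast genes Amelx, Ambn, Enam and Mmp20 fell from a sum of 4966559 to 5580346 normalized counts in the P5 libraries to 237040 to 621683 in those of P12, and all 4 were called lower. The maturation genes Klk4, Amtn, Odam, Slc24a4 and Wdr72 summed to 12880 to 44228 in P5 libraries and 356963 to 482564 in P12 libraries, and all 5 were called higher. Genes of mesenchyme, bone and odontoblasts summed to 1035741 to 1233107 and to 906752 to 1175686, respectively (8 genes tested, 2 higher and 3 lower), so that the libraries also held RNA from outside the enamel epithelium. In such bulk samples, fewer cells of a type and less RNA per cell cannot be told apart.

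All 10 iron genes passed the filter. At P12, 7 were called higher (Fth1, Ftl1, Ncoa4, Slc40a1, Trf, Tfrc and Steap3) and 2 lower (Slc11a2 and Slc39a14), and Ireb2 was not called. The background is wide, since 57.2% of all tested genes were called, 28.8% higher and 28.4% lower. The median log2 fold change was 1.54 over the 10 genes and 0.01 over all tested genes. Normalized counts of the ages did not overlap for 9 of the 10 genes, against 52.5% of all tested genes. The balance over all genes depends on the scaling: TMM gave 4735 genes higher and 4676 lower, and scaling by the total count alone gave 8885 higher and 2330 lower, with the median of all genes shifted to 0.38 on the log2 scale. Of the iron genes, total-count scaling gave 8 higher and 2 lower, the added one being Ireb2. Relative to the shifted median, the 10 log2 fold changes lay between -1.10 for Slc11a2 and 2.47 for Fth1.

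**Figure D1:**
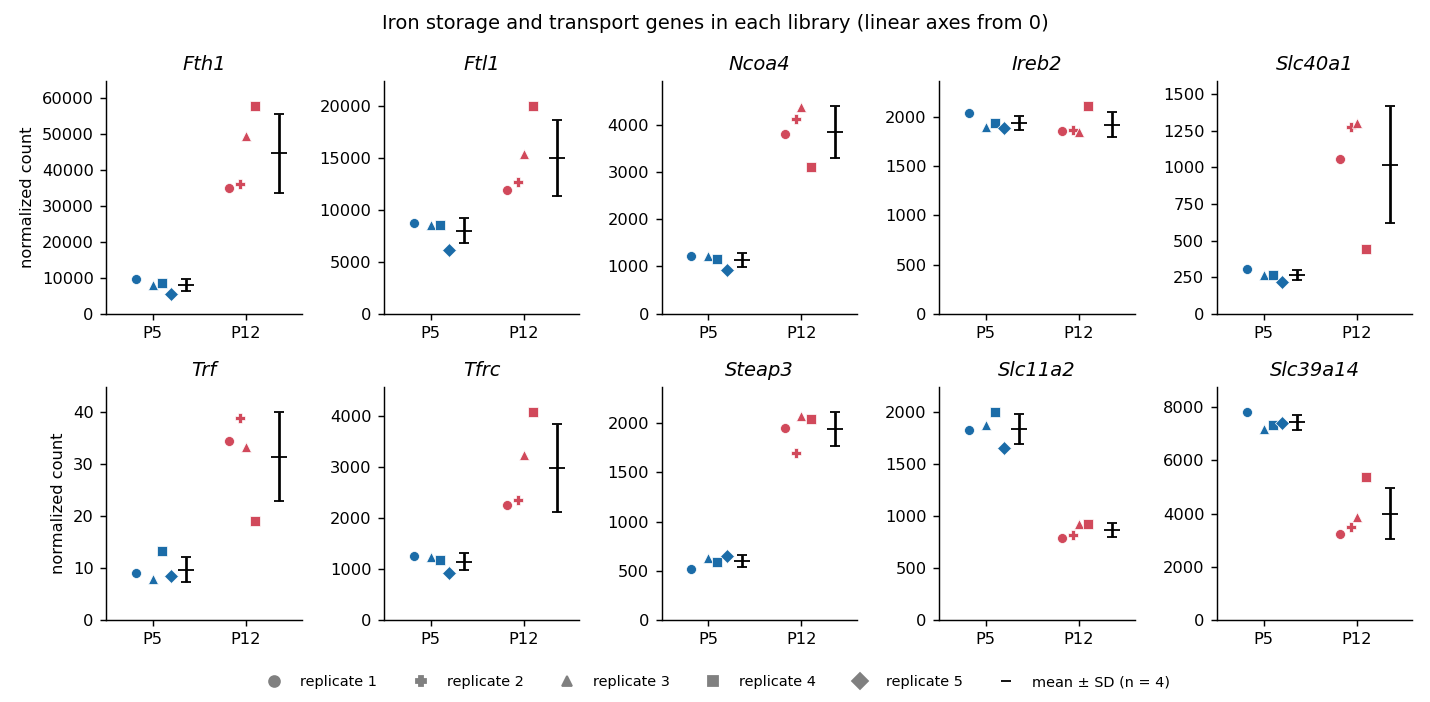
Normalized counts of the 10 iron genes in each of the 8 libraries, on linear axes from 0, with P5 in blue, P12 in red, a marker shape for each replicate number and the mean ± SD (n = 4 pools) beside each group. Slc11a2 and Slc39a14 were lower in all P12 libraries, Ireb2 overlapped between the ages, and the other 7 were higher in all P12 libraries.

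Ferritin, the storage shell, was the most abundant product of the group. Fth1 (ENSMUSG00000024661, GRCm38 chr19:9982703-9985092, plus strand) encodes the heavy chain, which oxidizes ferrous iron for storage. Its normalized counts were 9671, 8078, 8520 and 5580 in P5 replicates 1, 3, 4 and 5, and 35035, 35996, 49387 and 57723 in P12 replicates 1 to 4. The ages did not overlap, P5 replicate 5 was the lowest of its age, and P12 replicates 3 and 4 stood above the other two. Fth1 rose 5.59-fold, from 7962 ± 1724 to 44535 ± 10964 (SD, n = 4), and its log2 fold change was 2.48 (SE 0.20, edgeR adjusted p = 1.4e-06).

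Ftl1 (ENSMUSG00000050708, chr7:45457944-45459884, minus strand) encodes the light chain, which lacks the oxidizing site and favours the mineral core. The P5 libraries had 8725, 8546, 8535 and 6161 normalized counts, in the order used for Fth1, and those of P12 had 11956, 12647, 15366 and 20022. As for Fth1, the lowest P5 value was that of replicate 5 and the highest P12 value that of replicate 4, and the ages did not overlap. Ftl1 rose from 7992 ± 1224 to 14998 ± 3658 (SD, n = 4), 1.88-fold, with a log2 fold change of 0.91 (SE 0.17, edgeR adjusted p = 0.00067). Of the exonic bases of Ftl1, 34.6% are shared with Gm10252, an antisense gene with between 0 and 7 reads, and with Gm22133, which had none. Ferritin has many processed copies in the genome. The 15 other ferritin-named genes of the table had at most 132 reads in any library, and 10 of them had none. Copies under other names were not counted. How reads that match several places were treated is not given, so these counts do not show whether copies took reads from Fth1 or Ftl1.

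The ferritin chains did not rise by the same factor. A ratio of 2 genes within a library does not depend on the scaling between libraries. The log2 ratio of Fth1 to Ftl1 reads was 0.15, -0.08, 0.00 and -0.14 in P5 replicates 1, 3, 4 and 5, and 1.55, 1.51, 1.68 and 1.53 in P12 replicates 1 to 4. It was thus tight within both ages and higher in every P12 library, although the 2 genes themselves varied widely among the P12 libraries. The mean difference was 1.59 on the log2 scale, a 3.01-fold shift toward the heavy chain. The two-sided exact permutation test gave p = 0.02857, the smallest p that 4 against 4 libraries allow (p = 0.02857 also after Benjamini-Hochberg adjustment over 2 ratios). Per kilobase of gene length, the heavy chain stood at 1.53 times the light chain at P5 (range 1.40 to 1.72) and at 4.59 times at P12 (range 4.40 to 4.97), with the 866 bases that the deposited table gives as the length of Fth1. With the 3469 exonic bases of GENCODE M21 the order at P5 turned, to 0.38 times (range 0.35 to 0.43), and at P12 it was 1.15 times (range 1.10 to 1.24). The M21 model of Fth1 has other coordinates, and 3469 bases are more than the table's whole Fth1 gene (chr19:9982703-9985092) spans. The M21 length is therefore not the one these reads were counted over. With the table's length the heavy chain was above the light chain in all 4 P5 libraries. The 3.01-fold shift between the ages does not depend on the length.

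**Figure D2:**
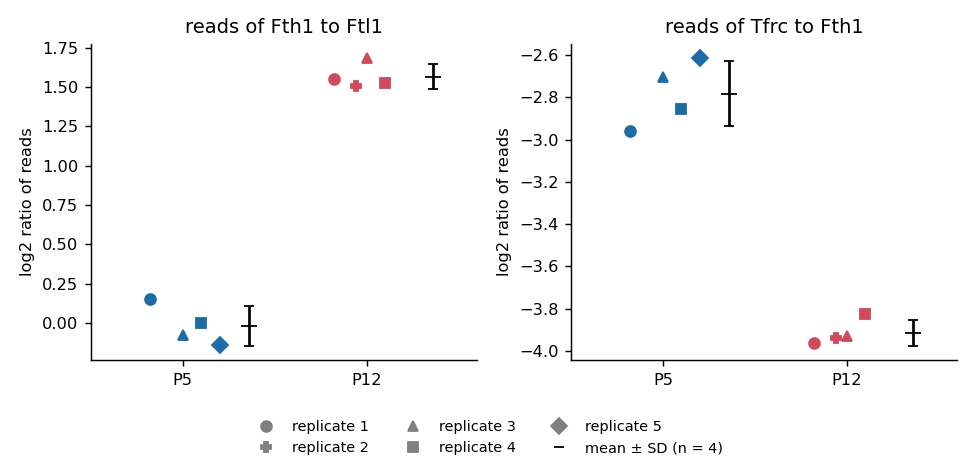
Log2 ratio of Fth1 to Ftl1 reads and of Tfrc to Fth1 reads within each library, with points for the libraries and the mean ± SD (n = 4 pools) of each age. The Fth1 to Ftl1 ratio lay near 0 at P5 and between 1.51 and 1.68 at P12, and the Tfrc to Fth1 ratio fell from a range of -2.96 to -2.62 to one of -3.96 to -3.83.

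Ncoa4 (ENSMUSG00000056234, chr14:32159865-32179855, plus strand) encodes the receptor that delivers ferritin to autophagosomes, so that stored iron is released. It had 1228, 1226, 1165 and 919 normalized counts in the P5 libraries, against 3800, 4122, 4369 and 3096 in those of P12. The P12 values did not overlap those of P5, and P12 replicate 4, which had the most ferritin transcript, had the least Ncoa4. Ncoa4 rose from 1135 ± 147 to 3847 ± 552 (SD, n = 4), 3.39-fold, with a log2 fold change of 1.76 (SE 0.12, edgeR adjusted p = 3.8e-07).

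Ireb2 (ENSMUSG00000032293, chr9:54863789-54912530, plus strand) encodes iron regulatory protein 2, a protein that binds the hairpins shown above and is degraded when iron is plentiful. The P5 libraries gave 2047, 1901, 1946 and 1891 normalized counts, and the P12 libraries gave 1857, 1875, 1854 and 2115. The ages overlapped, and the highest single value was that of P12 replicate 4. The means were 1946 ± 71.1 and 1925 ± 127.0 (SD, n = 4), a log2 difference of -0.02 (SE 0.06, edgeR adjusted p = 0.85). Under scaling by total count the log2 difference of Ireb2 was 0.36 (adjusted p = 0.00012), close to the 0.38 of the median gene under that scaling.

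Slc40a1 (ENSMUSG00000025993, chr1:45908068-45926523, minus strand) encodes ferroportin, the only known iron exporter of mammalian cells. Normalized counts of 309, 265, 264 and 219 in the P5 libraries compare with 1057, 1275, 1306 and 443 in the P12 libraries. P12 replicate 4 stood far below the other P12 libraries, yet above every P5 library. Slc40a1 rose from 264 ± 36.5 to 1020 ± 401 (SD, n = 4), 3.88-fold, with a log2 fold change of 1.95 (SE 0.28, edgeR adjusted p = 0.00013). Without P12 replicate 4 the log2 fold change was 2.20 (SE 0.11, adjusted p = 4.4e-09).

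Trf (ENSMUSG00000032554, chr9:103204001-103230444, minus strand) encodes transferrin, the iron carrier of plasma, which the liver makes. It was the scarcest of the 10 genes, with raw counts of 7, 7, 10 and 8 reads in the P5 libraries and 47, 46, 36 and 19 in the P12 libraries. After normalization these were 8.999, 7.826, 13.18 and 8.468, against 34.46, 38.81, 33.36 and 19.08. The ages did not overlap, but P12 replicate 4 was closer to P5 than the other P12 libraries were. The log2 fold change was 1.72 (SE 0.32, edgeR adjusted p = 0.0008), or 3.29-fold. Of the exonic bases of Trf, 63.5% are shared with Gm20425 on the same strand, which had no reads in any library, and how reads on shared bases were assigned is not given in the sources used here. Trf is therefore a low value of uncertain level, and with at least 10 reads required in every library it did not pass the filter.

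Tfrc (ENSMUSG00000022797, chr16:32608920-32632794, plus strand) encodes transferrin receptor 1, the main route of iron uptake. The 4 P5 libraries had 1243, 1241, 1175 and 909 normalized counts, and the 4 P12 libraries had 2246, 2347, 3241 and 4073. The ages did not overlap, and P12 replicates 3 and 4 were again the highest. Tfrc rose from 1142 ± 158 to 2977 ± 857 (SD, n = 4), 2.61-fold, with a log2 fold change of 1.38 (SE 0.18, edgeR adjusted p = 6.2e-05). Its rise was smaller than that of Fth1. Within libraries, the log2 ratio of Tfrc to Fth1 reads was -2.96, -2.70, -2.86 and -2.62 for P5, whereas P12 had -3.96, -3.94, -3.93 and -3.83, so that the receptor lost ground to heavy-chain ferritin in every P12 library. The difference was -1.13 on the log2 scale, or 2.19-fold (two-sided exact permutation p = 0.02857, the smallest possible).

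Steap3 (ENSMUSG00000026389, chr1:120190757-120272705, minus strand) encodes the endosomal reductase that turns ferric iron from transferrin into ferrous iron. In the P5 libraries it stood at 521, 634, 587 and 652 normalized counts, and in the P12 libraries at 1949, 1695, 2078 and 2040. The P12 libraries lay close together, with replicate 4 in their midst, and far above P5. Steap3 rose from 598 ± 58.6 to 1941 ± 173 (SD, n = 4), 3.24-fold. Its log2 fold change of 1.70 had an SE of 0.09 (edgeR adjusted p = 5.2e-08), and its adjusted p was the lowest of the 10 genes.

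Slc11a2 (ENSMUSG00000023030, chr15:100387898-100425072, minus strand, 6.33% of its exonic bases shared with Gm5475, which had at most 9 reads) encodes DMT1, the divalent metal transporter that moves ferrous iron out of endosomes and across apical membranes. Its normalized counts of 1828, 1877, 2000 and 1656 in the P5 libraries were followed by 788, 820, 926 and 920 in the P12 libraries. Every P12 library was below every P5 library. Slc11a2 decreased from 1840 ± 142 to 863 ± 69.7 (SD, n = 4), to 46.9% of the P5 mean, with a log2 fold change of -1.09 (SE 0.08, edgeR adjusted p = 5.4e-07). Thus Steap3 and Slc11a2, which act one after the other in the endosome, were called in opposite directions.

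Slc39a14 (ENSMUSG00000022094, chr14:70303469-70351425, minus strand) encodes ZIP14, a transporter of zinc, manganese and of iron that is not bound to transferrin. For P5 the normalized counts were 7816, 7182, 7337 and 7394, and for P12 they were 3218, 3498, 3859 and 5368. The P5 libraries were nearly alike, whereas P12 replicate 4 lay between the other P12 libraries and those of P5. Slc39a14 decreased from 7432 ± 271 to 3986 ± 958 (SD, n = 4), to 53.6% of the P5 mean, with a log2 fold change of -0.90 (SE 0.14, edgeR adjusted p = 0.00018). Without P12 replicate 4 it was -1.08 (SE 0.07, adjusted p = 5.9e-08). Scaling by total count made both decreases smaller, with log2 fold changes of -0.72 for Slc11a2 and -0.54 for Slc39a14, and both were still called.

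**Figure D3:**
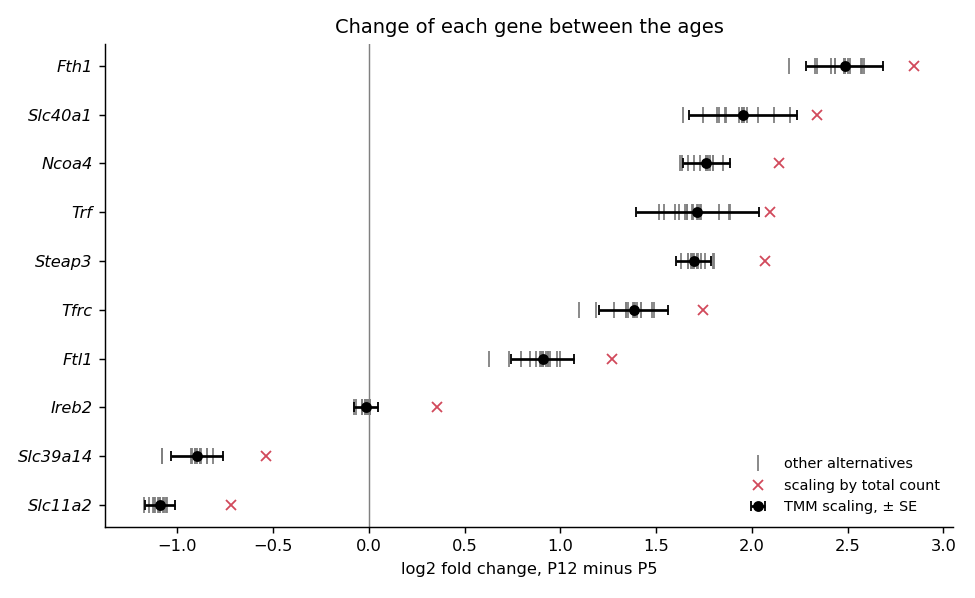
Log2 fold change (P12 minus P5) of the 10 iron genes, with the edgeR estimate under TMM scaling and its SE in black, scaling by total count as red crosses and the other alternatives as grey ticks. Total-count scaling moved every gene to the right, Ireb2 from -0.02 to 0.36, and 7 genes lay above 0 and Slc11a2 and Slc39a14 below 0 under every setting drawn.

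Set against all 16440 tested genes, of which the middle 90% had log2 fold changes from -1.72 to 1.75, Fth1 (2.48), Slc40a1 (1.95) and Ncoa4 (1.76) lay above that range. Slc11a2 (-1.09) and Slc39a14 (-0.90) lay within it but below the middle 50%, which ran from -0.40 to 0.42.

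Levels were compared between genes only as mean normalized counts per kilobase of gene length. At P5 the order was Fth1 (9194), Ftl1 (5964), Slc39a14 (704.5), Slc11a2 (289.6), Ireb2 (205.3), Tfrc (184.6), Ncoa4 (121.1), Steap3 (104.7), Slc40a1 (29.3) and Trf (2.90). The ranges over libraries of 3 neighbouring pairs overlapped at that age, namely Fth1 and Ftl1, Ireb2 and Tfrc, and Ncoa4 and Steap3. Judged within each library, however, Fth1 stood at 1.4 to 1.7 times Ftl1 in every P5 library, with the table's length of Fth1. Among the genes in this order, the 2 metal importers Slc39a14 and Slc11a2 therefore came directly after ferritin at P5. The order does not cover other genes of uptake and transport. Of those, Slc39a8 stood at 573.6 per kilobase at P5, between Slc39a14 and Slc11a2. At P12 the order per kilobase was Fth1 (51426), Ftl1 (11192), Tfrc (481.3), Ncoa4 (410.8), Slc39a14 (377.8), Steap3 (339.6), Ireb2 (203.1), Slc11a2 (135.9), Slc40a1 (113.3) and Trf (9.47). Neighbours from Tfrc to Steap3 overlapped there, as did Slc11a2 and Slc40a1, while Fth1 and Ftl1 no longer did. The level of Fth1 rests on the gene length of the deposited table, 866 bases. In GENCODE M21, whose Fth1 coordinates differ from the table's, its exons cover 3469 bases. That length, over which these reads were not counted, would give levels per kilobase of 2295 at P5, below Ftl1, and 12838 at P12, above Ftl1. The fold change of Fth1 would be as given. Among all 16440 tested genes ranked per kilobase, Fth1 moved from rank 42 to rank 9 and Ftl1 from rank 69 to rank 32. Tfrc moved from rank 4351 to rank 1510, Slc40a1 from 11212 to 6424, and Slc11a2 the other way, from 2783 to 5633.

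The 4 P12 libraries did not vary alike for all genes. P12 replicate 4 had the highest P12 value of Fth1, Ftl1, Tfrc, Slc39a14 and Ireb2, and the lowest of Ncoa4, Slc40a1 and Trf. The ratio of the highest to the lowest P12 library was 2.95 for Slc40a1 and 2.03 for Trf, against 1.17 for Slc11a2 and 1.23 for Steap3. This library also stood apart in marker genes. The secretory ameloblast genes summed to 621683 in P12 replicate 4 and to 237040, 264278 and 433634 in P12 replicates 1, 2 and 3. The oral mucosa genes (Krt13, Krt4, Krt6b, Krt24, Krt76 and Sprr3) summed to 4127 there and to between 21478 and 34009 in the other P12 libraries. The osteoclast genes summed to 4390 there, against 6819 to 10883 in the others, and the macrophage genes to 2099, against 2295 to 2757. Genes of dividing cells summed to 2230 there, against 2965 to 3931, and erythroid genes to 18345, against 21569 to 22913, while Tfrc was at its P12 highest. Maturation ameloblast genes, in contrast, were at their highest there, at 482564. From lowest to highest, the 4 P12 libraries came in the same order for Fth1, Ftl1, Tfrc and Slc39a14. The summed secretory genes and the summed maturation genes had that order too. At P5, replicate 5 was the lowest library for 7 of the 10 iron genes, namely Fth1, Ftl1, Tfrc, Slc40a1, Slc11a2, Ncoa4 and Ireb2. Its maturation genes summed to 12880, against 36789 to 44228 in the other P5 libraries, its erythroid genes to 18872, against 29852 to 37079, and its oral mucosa genes to 485.8, against 801.5 to 914.0. The part of these differences in the values of the iron genes was not tested.

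**Figure D4:**
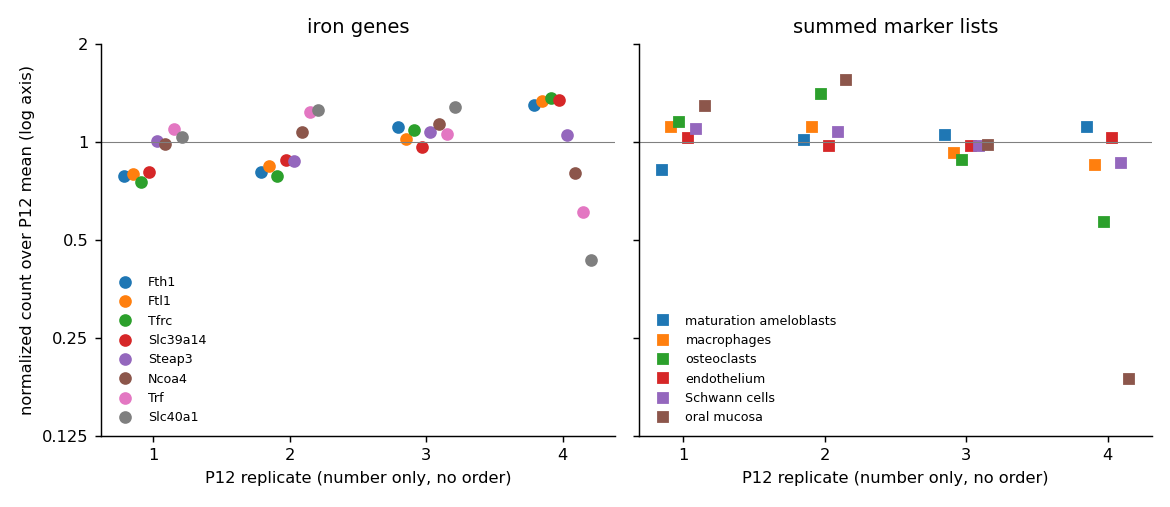
Normalized count in each P12 library divided by the P12 mean, on a log axis, for 8 iron genes (left) and for the summed genes of 6 marker lists (right). In P12 replicate 4, Fth1, Ftl1, Tfrc and Slc39a14 lay above 1 and Ncoa4, Trf and Slc40a1 below it. The macrophage, osteoclast, Schwann cell and oral mucosa lists also lay below 1 there, and the maturation ameloblast and endothelium lists above it.

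Several of these lists also moved with age, beside the 7 genes that rose. Ferroportin and Trf are known from macrophages and Schwann cells, and Tfrc from dividing and erythroid cells. Summed macrophage genes ranged over 1643 to 2034 normalized counts in the P5 libraries, and over 2099 to 2757 in those of P12 (5 of 9 called higher, none lower). For osteoclast genes these ranges were 1410 to 2402 and 4390 to 10883 (6 of 6 tested higher). For endothelial genes they were 2637 to 3290 and 5173 to 5483 (6 of 6 higher), and for oral mucosa genes 485.8 to 914.0 and 4127 to 34009 (6 of 6 higher). For genes of dividing cells they were 1257 to 1665 and 2230 to 3931 (5 of 5 higher). All of these lists were thus higher in every P12 library than in any P5 library. Schwann cell genes overlapped, with 2724 to 3654 and 2868 to 3640 (4 of 7 higher, 1 lower), and so did erythroid genes, with 18872 to 37079 and 18345 to 22913 (none of 8 higher, 2 lower). Skeletal muscle genes were lower, with 659.5 to 1177 and 319.0 to 405.9 (5 of 5 lower). No gene of these lists was at 0 in all libraries. The part of these cells in the changes of the iron genes was not tested. With P5 replicate 5 and P12 replicate 4 both left out, a choice made after seeing the data, the calls of the 10 genes were again 7 higher and 2 lower, with log2 fold changes of 2.20 for Fth1, 1.10 for Tfrc and 2.12 for Slc40a1.

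Beyond the 10 genes, a list of 68 other genes of iron and haem handling moved both ways. All 68 were in the table and 59 passed the filter, of which 17 were called higher, 15 lower and 27 not called. The share called, 54.24%, was near the 57.2% of all tested genes, and the median log2 fold change was 0.05. Scaling by total count gave 38 higher and 6 lower, and of the 9 decreases that were lost under it, the largest was that of the haem exporter relative Flvcr2, at -0.64 on the log2 scale.

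Reductases and oxidases had the widest changes of the list, with 2 of 6 tested genes higher and 3 lower (3 and 3 under total-count scaling). Steap1, a family relative of Steap3, fell from 1123 ± 55.8 to 64.1 ± 21.8 normalized counts (SD, n = 4), which is -4.15 on the log2 scale (SE 0.16, edgeR adjusted p = 6.4e-09). Its P5 libraries lay at 1046 or more and its P12 libraries at 96.4 or less. Steap4, a reductase of that family, rose from 28.4 ± 13.1 to 193 ± 32.9 (log2 fold change 2.78, adjusted p = 8.1e-06). The ferroxidases, which oxidize iron for loading onto transferrin, also went apart. Heph, the membrane-bound form, fell from 2112 ± 199 to 635 ± 95.6 (log2 fold change -1.74, adjusted p = 2e-07), and Cp, ceruloplasmin, rose from 25.9 ± 3.64 to 101 ± 35.7 (1.96, adjusted p = 0.00015). Cp shares 1.13% of its exonic bases with Hps3 on the other strand, which had between 206 and 403 reads. Steap1 and Heph were also called lower under total-count scaling.

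Among other uptake and transport genes, 3 of 9 tested were higher and 2 lower (6 and 2 under total-count scaling). Scara5, a receptor that takes up ferritin, fell from 433 ± 71.8 to 169 ± 26.8 (log2 fold change -1.35, edgeR adjusted p = 1.5e-05). Ndfip1, an adaptor through which DMT1 is marked for degradation, fell from 6786 ± 346 to 3287 ± 286 (-1.05, adjusted p = 5.9e-07), so that the transporter and its adaptor were lower together. In the hepcidin axis 3 of 8 genes passed the filter, and 1 was called higher and none lower (3 and none under total-count scaling). Bmp6, a signal that induces hepcidin in liver, rose from 26.4 ± 10.1 to 92.0 ± 18.1 (1.80, adjusted p = 0.00017), and Neo1, the most abundant of them per kilobase, changed by 0.02 on that scale (adjusted p = 0.84). Of the exonic bases of Bmp6, 5.74% are shared with Txndc5 on the other strand, which had between 2650 and 4687 reads, and without a stated use of strand their reads cannot be told apart. Hamp, the hepcidin gene itself, did not pass the filter, and neither did Hamp2, Hfe2, Tmprss6, Erfe, Ftmt, Hephl1, Meltf or Lrp2.

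In the remaining groups no called gene changed by 1 log2 unit or more, and their counts of calls depended on the scaling. Of the 3 tested genes of ferritin and iron chaperones, none was higher and 2 were lower (1 and none under total-count scaling). Pcbp1, which carries iron to ferritin, stood at -0.24 on the log2 scale (adjusted p = 0.0063), while under total-count scaling it was 0.13 and not called. The group of iron regulatory proteins had 1 of 3 higher and 1 lower (2 and none under total-count scaling). Aco1 was called higher, at 0.30 (edgeR adjusted p = 0.0036), and also under total-count scaling, at 0.67. Fbxl5 was called lower, at -0.22 (edgeR adjusted p = 0.012), but not under total-count scaling. Skp1a, the most abundant there per kilobase, stood at 0.15 (adjusted p = 0.083). Among 14 genes of mitochondrial iron and iron-sulfur clusters, 6 were higher and 2 lower (11 and none under total-count scaling, where Glrx5 and Isca1 lost their calls), with a log2 fold change of 0.55 for Cisd1 (adjusted p = 0.00081). None of 9 genes of haem synthesis was called higher and 3 were lower (4 higher and 1 lower under total-count scaling), and Alas2, the erythroid first enzyme of that pathway, had -0.36 (adjusted p = 0.12), with 15.5% of its exonic bases shared with genes of the other strand. Of 12 genes of haem breakdown and transport, 4 were higher and 2 lower (8 and none under total-count scaling). The largest change of that group was the rise of Hmox1, at 0.95 (edgeR adjusted p = 1.2e-05). Under total-count scaling Hmox1 was also called higher, at 1.33. Lrp1, the receptor of haem bound to hemopexin, had -0.20 (adjusted p = 0.094).

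**Figure D5:**
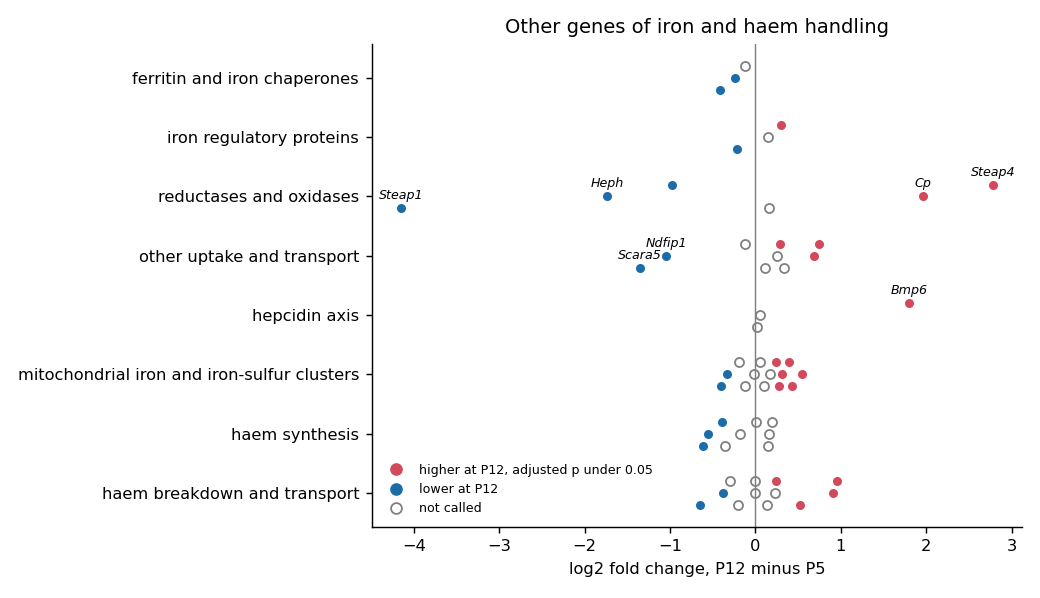
Log2 fold change (P12 minus P5, edgeR) of the 59 tested genes of the wider iron and haem list, by group, with genes called at an adjusted p under 0.05 marked and called genes that changed by 1 log2 unit or more named. The extremes were Steap1 (-4.15) and Steap4 (2.78), both of the Steap family, and the groups of mitochondrial iron and haem synthesis stayed within a narrow band around 0.

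Promoter windows from RefSeq (GRCm38.p6, 250 bases before to 50 bases after the start) were available for 13 starts of 6 of the 10 genes. The letters TGACNNNGC, the core of the antioxidant response element known from ferritin regulation, were found on either strand in 1 of the 13 windows, that of Ncoa4, against 12.4% of all 32851 windows. Trf, Slc40a1, Slc11a2 and Slc39a14 had no entry. Sequence farther from the start was not searched, so that an element there, in Fth1, Ftl1 or any other gene, would have been missed.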

How the data were processed

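The authors deposited whole-number read counts per gene, not normalized, with names, coordinates and lengths. Coordinates are those of GRCm38, while the submitters' processing notes name mm39 and CASAVA. The aligner, the counting program and its use of strand are not given in the sources used here. RNA was captured by polyA. Libraries were matched to columns by title. The test was glmQLFTest of edgeR 4.0.16, run in R 4.3.3 after filterByExpr, TMM and glmQLFit, without covariates. DESeq2 1.42.0, which the study's methods name, limma-voom (limma 3.58.1), other scalings and filters, each library left out and a replicate block were alternatives. Single ratios used two-sided exact permutation over all splits, with a pseudocount of 1. Tests were first tried on simulated counts. All 12 within-age pairs of libraries differed by more than sampling allows (chi-square over its degrees of freedom, 4.76 to 74.55). A count of 3, between 0.136 and 0.181 CPM, is the floor of a library, for counting error only. From the wider list, the text names called genes that changed by 1 log2 unit or more, the most abundant of each group per kilobase, and untested genes. A few further genes are named where the calls of a group are described. The 10 genes and all lists were chosen with earlier results of these data known. Shared exons were computed from GENCODE M21, whose coordinates for Fth1 and Ndfip1 differ from the table's. Hjv was found as Hfe2 through RefSeq synonyms.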

Additional observations from a re-analysis of the deposited data

Results flagged for a closer look

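Of 24 groups of 4 libraries examined (10 genes and 2 ratios at each age), 2 held a library whose gap to its nearest neighbour, over the whole range of the group, exceeded the 95% critical value of Dixon's test. Chance flags about 1 in 20 such groups. Ftl1 in P5 replicate 5, at 6161 normalized counts, stood below the other P5 libraries, which lay between 8535 and 8725. Ireb2 in P12 replicate 4, at 2115 normalized counts, stood above the other P12 libraries, which lay between 1854 and 1875.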

How the results depend on the processing

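Over 18 alternatives (17 for Trf, which failed a minimum of 10 reads in every library), the 9 called iron genes kept their direction and their call. Log2 fold changes ranged from 2.20 to 2.85 for Fth1, 0.63 to 1.27 for Ftl1, 1.10 to 1.75 for Tfrc, 1.64 to 2.34 for Slc40a1, -1.17 to -0.72 for Slc11a2 and -1.08 to -0.54 for Slc39a14. Their highest adjusted p was 0.025, for Trf under the replicate block. Scaling by total count gave 8885 genes higher and 2330 lower (79.2% of calls higher, against 50.3%), and 38 and 6 in the wider list. Ireb2 then had a log2 difference of 0.36 (edgeR adjusted p = 0.00012). The median gene stood at 0.38 under that scaling, whereas TMM assumes that most genes do not change and puts it near 0 (0.0076). In each library, the 20 most abundant genes took 34.08 to 35.71% of P5 reads and 16.8 to 18.97% of P12 reads. The part of those genes in the shift was not tested. Ireb2, near 0 throughout, also changed sign without the low-count filter (0.0027, adjusted p = 0.98) and with libraries left out in turn (-0.07 to 0.0057, adjusted p 0.32 to 0.98), without a call, and was -0.0778 without both P5 replicate 5 and P12 replicate 4, an alternative added after seeing the data. Same-numbered libraries did not deviate together (correlations 0.0447, 0.00514 and -0.0361 for numbers 1, 3 and 4), so the numbers do not pair them. When the 6 libraries with a shared number were fitted with a replicate block, 11 genes of the wider list were higher, against 13 in those libraries without the block, and the iron genes were again 7 higher and 2 lower. At 7 to 47 reads, Trf is the gene whose precision depth limits most.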
